A study of Mus musculus with 14 samples.

Results

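The AP-1 family was represented by 10 genes, chosen by name from what they encode and found by their symbol in both deposited tables, among 53278 genes in all: the Fos proteins Fos, Fosb, Fosl1 and Fosl2, the Jun proteins Jun, Junb and Jund, and the related factors Batf, Batf3 and Atf3. They were measured by RNA-seq in 14 libraries from 2 experiments on group 2 innate lymphoid cells (ILC2s), which were sorted from mouse lung as live, lineage-, CD90.2+, CD3- cells. In the stimulation experiment, 8 female B6 mice gave 1 library each, 4 from unstimulated cells and 4 from cells cultured for 24 h with 20 ng/mL of IL-33, an alarmin released by damaged tissue. The labels give no culture time for the unstimulated cells. The design text describes 24 h without IL-33 and also calls them ex vivo, so any difference between these groups may include one of culture. In the Blimp-1 experiment, 3 female ControlIL7RaCre and 3 female Blimp-1IL7RaCre mice gave 1 library each, the 2 groups being matched for age, and both groups were activated for 72 h in culture with 20 ng/mL each of IL-33 and IL-25. Mice of both experiments were over 6 weeks old, with no exact age given. The Methods add IL-2 to this culture, which the labels do not mention. The Cre recombinase is expressed from the Il7r gene and deletes Prdm1, which encodes the transcriptional repressor Blimp-1, in all innate lymphoid cells and in T, B and NK cells of these mice. The design text describes cells sorted from individual mice, those of the stimulation experiment being divided into the 2 groups, so that equal mouse numbers in their labels do not mark the same mouse. Figure legends of the study speak instead of sorting samples pooled from a pair of animals. P-values measure the spread between these libraries, whether each stands for 1 mouse or for a pool.

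AP-1 is a dimer of basic leucine zipper (bZIP) proteins that binds short palindromic DNA sites. Jun proteins pair with one another or with Fos proteins, while BATF proteins lack a transactivation domain and bind with Jun proteins beside IRF4 in lymphocytes. Fos, Fosb, Jun, Junb and Atf3 are known as early response genes, whose transcripts appear soon after a receptor signals through MAP kinases and decay quickly, and IL-33 acts on ILC2s through the receptor ST2, MyD88, NF-kB and MAP kinases. Fosl2 and Jund are known for a more lasting expression.

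In ILC2s stimulated with IL-33, 6 members were higher than in unstimulated ILC2s: Atf3, Junb, Batf, Jun, Fosl1 and Fosl2, of which Atf3 rose the most, by 4.08 ± 0.32 on the log2 scale (standard error, n = 4 per group). They were 6 of 9 members tested, while 16.2% of all genes tested were called higher. Fos was lower in 3 of the 4 stimulated libraries, Jund overlapped between the groups, Fosb was high in 1 stimulated library only, and Batf3 was close to the limit of detection. In Blimp-1-deficient ILC2s no member passed the test over all 6 libraries, and Atf3 and Junb were higher once Control replicate 2 was left out, which raised the share of all genes called higher from 0.45% to 8.25%. Junb held the largest share of the family's transcripts in all 4 stimulated libraries and in all 6 libraries of the Blimp-1 experiment.

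**Figure D1:**
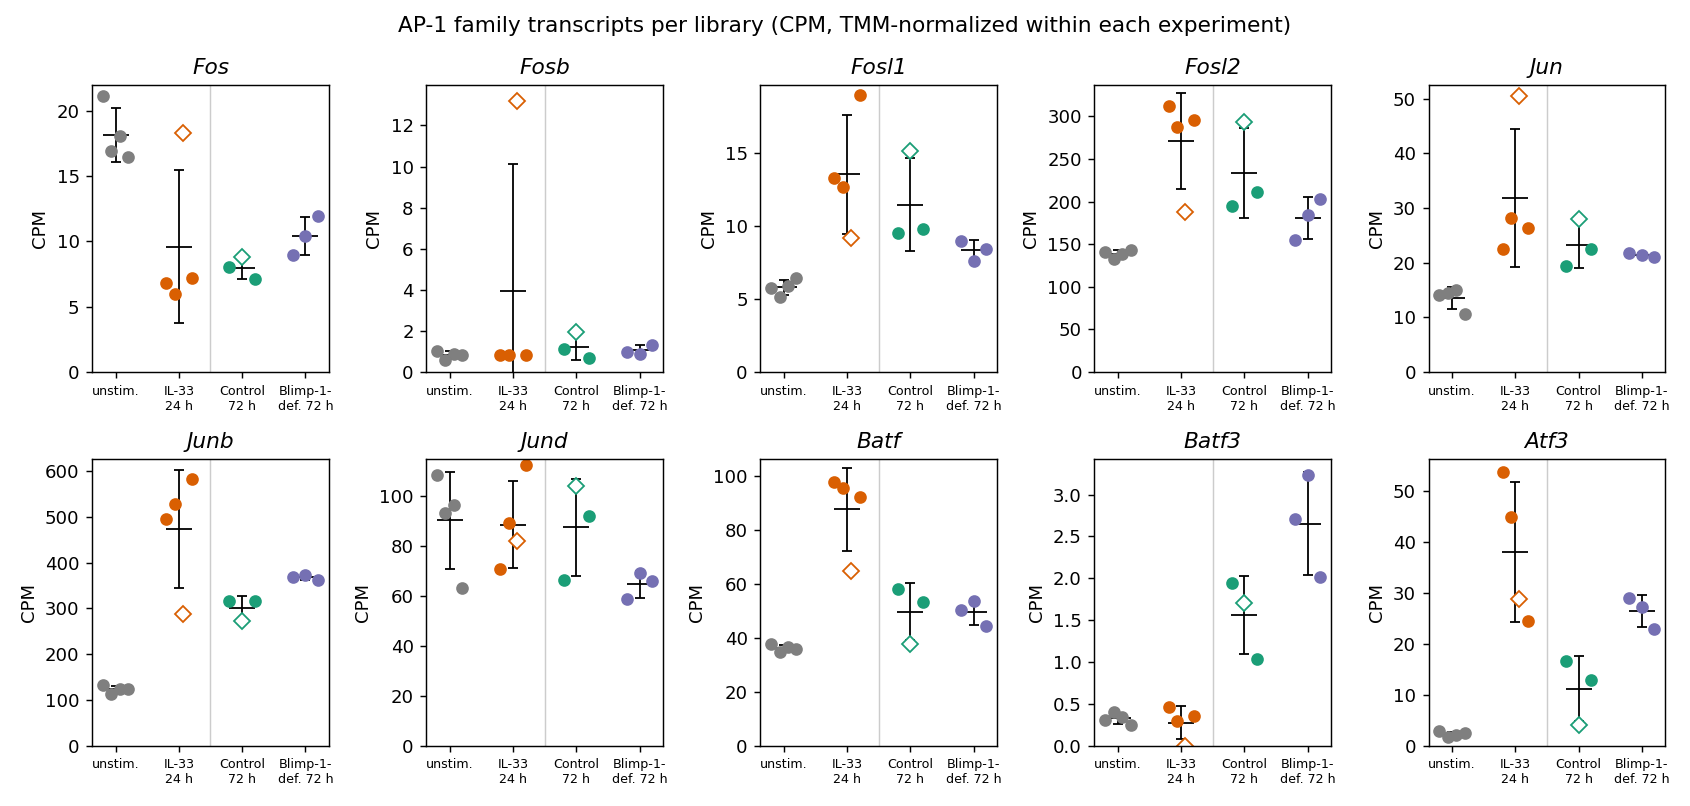
Transcript level of each AP-1 member in all 14 libraries, as TMM-normalized counts scaled to 1e+06 per library (CPM, y axis, linear from 0). Points stand for libraries, bars for the mean ± SD of a group (cut at 0 for Fosb), open diamonds for IL-33 stimulated replicate 3 and Control replicate 2, and the grey line separates the 2 experiments, which were normalized separately. Atf3, Junb, Batf, Jun, Fosl1 and Fosl2 lie higher in every stimulated library than in every unstimulated one, while the stimulated libraries of Fos and Fosb split into 3 low points and 1 high point.

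The promoter windows of the members are shown because most of these genes moved with the stimulus. RefSeq gave a window around the transcription start, on GRCm38.p6, for 9 of the 10 members, and Fosl1 had none. Printed here are the 250 bases before the start for 5 members that rose after IL-33 and for Fos, 5′ to 3′ on the strand of the gene. The windows are chr1:191183334-191183583 for Atf3 (minus strand), chr8:84978749-84978998 for Junb (minus strand), chr12:85686470-85686719 for Batf (plus strand), chr5:32136222-32136471 for Fosl2 (plus strand), chr4:95052223-95052472 for Jun (minus strand) and chr12:85473640-85473889 for Fos (plus strand). Capitals mark matches to the letters searched on both strands: TGACG, which is the first part of the cAMP response element (CRE), TGACNTCA, and the NF-kB motif.
Atf3: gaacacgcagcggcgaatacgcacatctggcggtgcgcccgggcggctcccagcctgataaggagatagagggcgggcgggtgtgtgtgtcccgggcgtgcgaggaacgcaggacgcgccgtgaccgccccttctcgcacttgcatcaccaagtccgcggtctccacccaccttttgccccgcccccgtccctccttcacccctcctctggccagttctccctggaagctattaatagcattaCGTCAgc
Junb: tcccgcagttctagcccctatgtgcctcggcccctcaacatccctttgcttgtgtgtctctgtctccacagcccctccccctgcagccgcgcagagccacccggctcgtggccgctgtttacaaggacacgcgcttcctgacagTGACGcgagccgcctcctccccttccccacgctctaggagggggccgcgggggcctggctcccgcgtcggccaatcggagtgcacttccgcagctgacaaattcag
Batf: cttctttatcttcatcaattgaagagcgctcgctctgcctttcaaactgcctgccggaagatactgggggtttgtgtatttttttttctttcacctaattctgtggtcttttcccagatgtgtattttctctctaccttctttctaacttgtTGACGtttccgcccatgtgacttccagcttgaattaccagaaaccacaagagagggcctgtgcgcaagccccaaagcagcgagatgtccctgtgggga
Fosl2: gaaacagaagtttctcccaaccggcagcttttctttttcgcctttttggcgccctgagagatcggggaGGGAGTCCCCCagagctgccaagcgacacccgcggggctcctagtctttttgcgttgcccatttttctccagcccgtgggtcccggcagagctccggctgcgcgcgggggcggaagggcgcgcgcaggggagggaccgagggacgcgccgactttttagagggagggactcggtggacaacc
Jun: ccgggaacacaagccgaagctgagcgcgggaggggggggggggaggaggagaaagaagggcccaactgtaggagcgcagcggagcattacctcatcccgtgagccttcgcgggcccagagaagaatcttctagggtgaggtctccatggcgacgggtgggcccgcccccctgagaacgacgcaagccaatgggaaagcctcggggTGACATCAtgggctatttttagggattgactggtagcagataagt
Fos: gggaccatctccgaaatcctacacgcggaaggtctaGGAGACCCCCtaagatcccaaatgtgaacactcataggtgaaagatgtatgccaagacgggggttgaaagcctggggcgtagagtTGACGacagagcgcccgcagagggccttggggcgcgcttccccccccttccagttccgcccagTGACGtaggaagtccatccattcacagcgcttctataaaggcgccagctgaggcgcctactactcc

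TGACG was found in 5 members, Fos (129 and 66 bases before the start), Fosb (60), Junb (106), Batf (98) and Atf3 (7, on the other strand), and in 20.8% of 32851 promoter windows of the same length. The letters TGACATCA, a match to TGACNTCA, stood 45 bases before the start of Jun, and TGACNTCA was in 8.83% of all windows. The NF-kB motif was found in Fos, Fosb and Fosl2, 214, 188 and 182 bases before the start, and in 8.46% of all windows. The AP-1 site TGANTCA (7.81% of all windows), the full CRE TGACGTCA (1.79%), the core of the Blimp-1 motif AGNGAAAG (8.63%) and the CArG box, the site of serum response factor (1.63%), had no match in these windows of the 9 members. The start of RefSeq is not always that of GENCODE, from which the gene spans given with the members come: the window of Jund (chr8:70697489-70697738) ends well before the GENCODE start, and those of Atf3, Fosl2 and Batf3 lie inside the GENCODE span. TGACG and TGACNTCA were added after the windows had been read. TGACNTCA contains the CRE, whose first letters are TGACG, and a match is a description of the letters only.

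The libraries of the stimulation experiment held 10470125 to 32849428 counts and those of the Blimp-1 experiment 13570188 to 76448945, and 2 libraries stood apart. Loci of ribosomal RNA or ribosome-like sequence, 7 in all, took 76.8% of the counts of Control replicate 2, against 0.262% to 0.941% in the other libraries of that experiment, which left 3150795 counts for all other genes. IL-33 stimulated replicate 3 had the fewest counts of its experiment and 4.12% on these loci, against 0.258% to 0.314% in the other stimulated libraries. Most of the members' fold changes and the counts of called members are therefore given with and without these libraries. A count of 0 allows up to 3 counts, which correspond to 0.296 CPM in IL-33 stimulated replicate 3, 0.731 CPM in Control replicate 2 and at most 0.127 CPM in the unstimulated libraries. Without molecular identifiers, such limits describe the counting error alone. Summed over 12 ILC2 markers, expression was 9096 to 9958 CPM in unstimulated and 5999.7 to 8282 CPM in stimulated ILC2s, while 8 T cell markers summed to 55.5 to 68.0 and 15.6 to 29.7 CPM. The Controls had 75.2, 92.8 and 74.0 CPM of Prdm1, the deleted gene, and the Blimp-1-deficient libraries 14.6, 11.5 and 11.4 CPM.

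Atf3 encodes a stress-induced bZIP factor known mainly as a repressor, and its gene (ENSMUSG00000026628.13) spans chr1:191170296-191218039 on the minus strand of GRCm38 with 5 exon blocks. In unstimulated replicates 1 to 4 it had 2.81, 1.63, 2.04 and 2.52 CPM, and in IL-33 stimulated replicates 1 to 4 it had 53.7, 44.9, 28.9 and 24.5 CPM. All 4 stimulated libraries were far above all 4 unstimulated ones, and IL-33 stimulated replicate 3 lay within the range of the others. The log2 fold change was 4.08 (SE 0.32, 16.9-fold, adjusted p = 7.65e-05 by the quasi-likelihood test of edgeR, adjusted by Benjamini-Hochberg over 15466 genes), and 4.19 (SE 0.28) without IL-33 stimulated replicate 3. In these bulk libraries, more cells with a transcript and more transcript per cell cannot be told apart.

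Among the Jun proteins, Junb and Jun rose and Jund did not. Junb (ENSMUSG00000052837.6, chr8:84974484-84978718, minus strand, 3 exon blocks) encodes a Jun protein with weaker transactivation than Jun. It had 132, 114, 123 and 123 CPM in the unstimulated libraries and 495, 529, 288 and 582 CPM in the stimulated ones. The groups did not overlap, and IL-33 stimulated replicate 3 was the lowest of its group. Junb rose by 1.95 (SE 0.20, 3.85-fold, adjusted p = 0.000276, edgeR) on the log2 scale, and by 2.12 (SE 0.07) without that library. Jun (ENSMUSG00000052684.4, chr4:95049034-95052222, minus strand, 1 exon block) encodes c-Jun, the founding partner of Fos. Its values were 14.1, 14.5, 15.1 and 10.6 CPM without and 22.4, 28.2, 50.5 and 26.4 CPM with IL-33. Here IL-33 stimulated replicate 3 was the highest library, and the log2 fold change of 1.23 (SE 0.26, adjusted p = 0.00890, edgeR) became 0.92 (SE 0.13, adjusted p = 0.000188) without it. Jund (ENSMUSG00000071076.6, chr8:70698949-70700616, plus strand, 1 exon block) encodes the Jun protein known for expression in resting cells. It had 108, 93.2, 96.2 and 63.0 CPM in the unstimulated and 70.7, 89.0, 81.9 and 112 CPM in the stimulated libraries. These ranges overlapped, and the log2 fold change of -0.03 (SE 0.19, adjusted p = 0.924, edgeR) was smaller than the spread between libraries, as was that of 0.01 (SE 0.19) without IL-33 stimulated replicate 3. Of the exon bases of Jund, 52.6% lie opposite the antisense gene Gm11175, which had 0 counts in all 14 libraries, and whether the counting used strand is not given in the sources used here.

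Of the Fos proteins, Fosl1 and Fosl2 rose. Fosl2 (ENSMUSG00000029135.10, chr5:32135801-32157842, plus strand, 4 exon blocks) encodes Fra-2, a Fos protein without the transactivation domain of Fos. Its level was 141, 133, 138 and 143 CPM in unstimulated ILC2s and 312, 288, 188 and 295 CPM in stimulated ILC2s. Every stimulated library was above every unstimulated one, with a log2 fold change of 0.97 (SE 0.15, adjusted p = 0.00187, edgeR), or 1.11 (SE 0.05) without IL-33 stimulated replicate 3. Fosl1 (ENSMUSG00000024912.6, chr19:5447547-5455946, plus strand, 4 exon blocks) encodes Fra-1, its close relative. It was at 5.76, 5.15, 5.91 and 6.40 CPM without and at 13.3, 12.7, 9.16 and 18.9 CPM with IL-33. The groups did not overlap, and the log2 fold change was 1.22 (SE 0.23, adjusted p = 0.00472, edgeR), or 1.37 (SE 0.16) without that library. Of the exon bases of Fosl1, 57.2% lie opposite the exons of Ccdc85b, whose own log2 fold change was -0.41 (SE 0.31, adjusted p = 0.322, edgeR). Reads of the 2 genes in that stretch could not be separated without the strand.

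For Fos and Fosb, the Fos proteins with a strong transactivation domain, the edgeR fold change depended on 1 library. Fos (ENSMUSG00000021250.13, chr12:85473890-85477273, plus strand, 4 exon blocks) had 21.1, 16.9, 18.1 and 16.5 CPM in unstimulated ILC2s and 6.83, 5.99, 18.3 and 7.22 CPM in stimulated ILC2s. The 3 stimulated libraries other than replicate 3 were below every unstimulated library, and replicate 3 lay among the unstimulated values. With all 8 libraries the log2 fold change was -0.93 (SE 0.36, adjusted p = 0.0868, edgeR), which did not pass the threshold. Without IL-33 stimulated replicate 3, Fos fell by 1.44 on the log2 scale (SE 0.12, adjusted p = 5.59e-06, edgeR, n = 4 and 3). With all 8 libraries it was also past the threshold in DESeq2 (-0.92, adjusted p = 0.0378) and in limma on log2(TPM + 1) (-1.31, adjusted p = 0.00706). The same held for limma on log2(TPM + 0.1) (-1.39, adjusted p = 0.00722) and voom with sample weights (-1.45, adjusted p = 7.61e-07). It did not pass under the other alternatives that kept all 8 libraries. Fosb (ENSMUSG00000003545.3, chr7:19302696-19310051, minus strand, 2 exon blocks) stayed between 0.573 and 1.01 CPM in unstimulated ILC2s and was at 0.821, 0.810, 13.2 and 0.849 CPM in stimulated ILC2s. Its log2 fold change was 2.21 (SE 1.02, adjusted p = 0.131, edgeR) with all libraries and 0.00 (SE 0.28, adjusted p = 0.995) without IL-33 stimulated replicate 3, and it thus rested on that 1 library.

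The BATF proteins differed in level. Batf (ENSMUSG00000034266.6, chr12:85686669-85709087, plus strand, 3 exon blocks), which encodes a partner of Jun proteins and IRF4 in lymphocytes, had 37.5, 34.9, 36.7 and 36.0 CPM in unstimulated and 97.8, 95.6, 64.7 and 92.2 CPM in stimulated ILC2s. The unstimulated libraries were close together, every stimulated library was above them, and replicate 3 was the lowest stimulated one. Batf rose by 1.27 on the log2 scale (SE 0.13, 2.42-fold, adjusted p = 0.000248, edgeR), and by 1.39 (SE 0.05) without replicate 3. Batf3 (ENSMUSG00000026630.9, chr1:191097847-191108945, plus strand, 5 exon blocks), best known from dendritic cells, had 8 to 14 counts in the unstimulated and 0 to 14 counts in the stimulated libraries. The default filter on low counts removed it from the test over all 8 libraries. Its log2 fold change over them was -0.17 (SE 0.77, adjusted p = 0.902) in edgeR with no filter and -0.11 (SE 0.67, adjusted p = 0.915) in DESeq2, and without IL-33 stimulated replicate 3 it was 0.17 (SE 0.36, adjusted p = 0.707, edgeR), so that its direction is not determined.

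Of the 9 members tested in the stimulation experiment, 6 were higher, against 16.2% of all 15466 genes tested, and 0 were lower, against 16.1% (edgeR, adjusted p below 0.05). Without IL-33 stimulated replicate 3, 6 of 10 members were higher, against 27.5% of 15733 genes, and 1 was lower, against 29.7%. The same 6 members stood higher in every stimulated library than in every unstimulated one, which held for 17% of all genes, and no member stood lower in every one, against 20.9%. Without IL-33 stimulated replicate 3 these shares of all genes were 28.6% and 30.1%, with the same 6 members higher and Fos lower. The median log2 fold change of the 9 members was 1.23, and that of all genes tested was 0.06. Each of the 6 members kept its direction and passed the threshold under all 17 alternatives of the processing, with adjusted p of at most 0.0378, the value of Jun without unstimulated replicate 4.

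**Figure D2:**
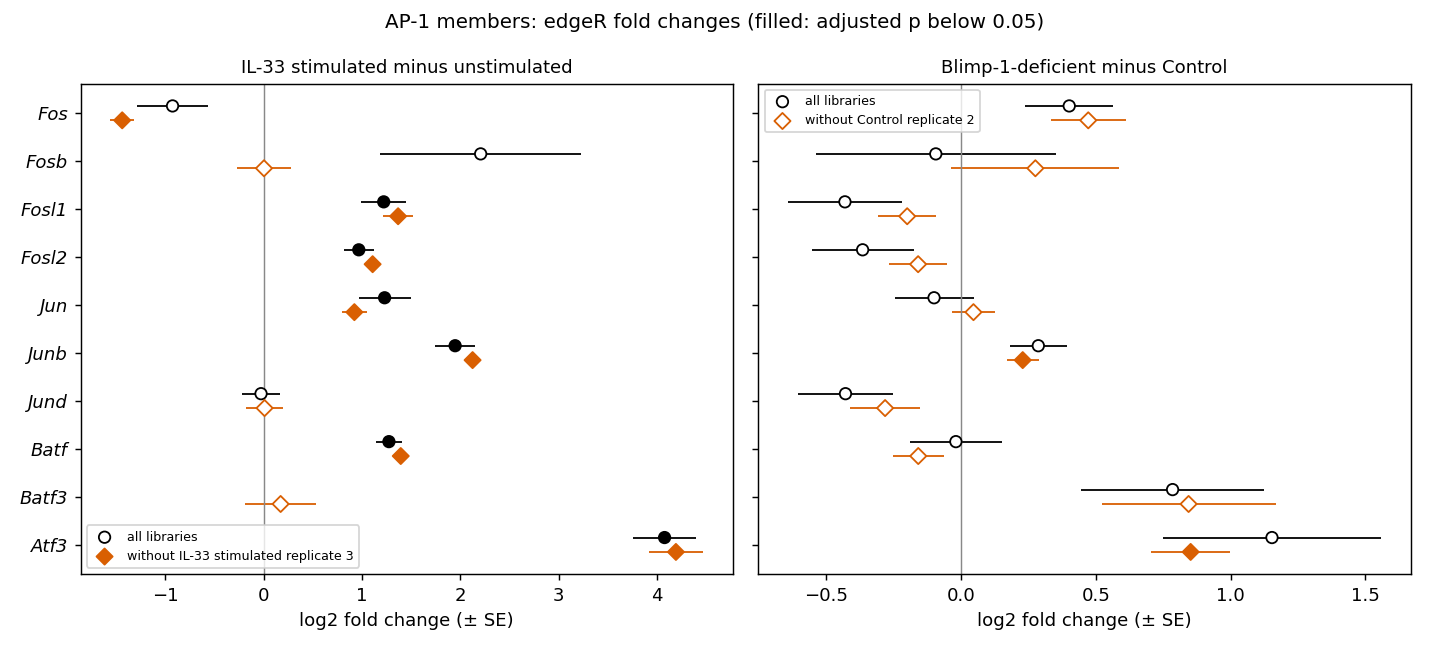
Log2 fold changes (x axis) ± SE of the AP-1 members after IL-33 (left) and in Blimp-1-deficient against Control ILC2s (right), from edgeR. Black circles stand for all libraries, orange diamonds for the fit without IL-33 stimulated replicate 3 (left) or without Control replicate 2 (right), and filled symbols for an adjusted p below 0.05; Batf3 has no circle on the left. Atf3 stands at 4.08 after IL-33, Fos moves from -0.93 to -1.44 and Fosb from 2.21 to 0.00 when 1 library is left out.

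Of the 9 members tested, IL-33 stimulated replicate 3 was above all 3 others for Fos, Fosb and Jun, below all 3 for Junb, Batf, Fosl2 and Fosl1, and within their range for Jund and Atf3. These are 33.3% of the members above and 44.4% below, near the shares over all genes tested, where it was above the others for 33.0% and below for 55.4%. Of 17 other early response genes, 35.3% were above the other stimulated libraries and 52.9% below, close to these shares of all genes. Those above included Egr1, Egr3 and Nr4a3. Egr1, a zinc finger factor induced by ERK signalling, had 98.1 CPM against 22.8 to 29.3 CPM in the other stimulated libraries. Egr3 had 57.0 against 10.2 to 14.2 CPM, and Nr4a3, an orphan nuclear receptor, had 19.1 against 0.559 to 1.70 CPM. Among the 9 genes of this list that were below was Gadd45b, at 16.4 against 46.0 to 48.4 CPM. The library also stood apart in markers of other cells. Csf1r, a receptor of macrophages, had 27.2 CPM against 0.486 to 2.17 CPM, and 4 of the 6 myeloid markers tested were above the other 3 libraries and 1, Cd68, below. The collagen gene Col1a1 had 237 against 55.7 to 67.7 CPM, but of the other 4 epithelial and stromal markers tested Pecam1 was below and Col1a2, Cdh5 and Epcam were within the range of the others. Of the 12 ILC2 markers 11 were below, and of the 8 T cell markers 6. Summed, the 8 myeloid markers reached 38.8 to 119.97 CPM in the stimulated group and the 8 epithelial and stromal markers 243 to 419 CPM. The part of these cells, of depth and of ribosomal sequence in the values of this library was not tested.

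**Figure D3:**
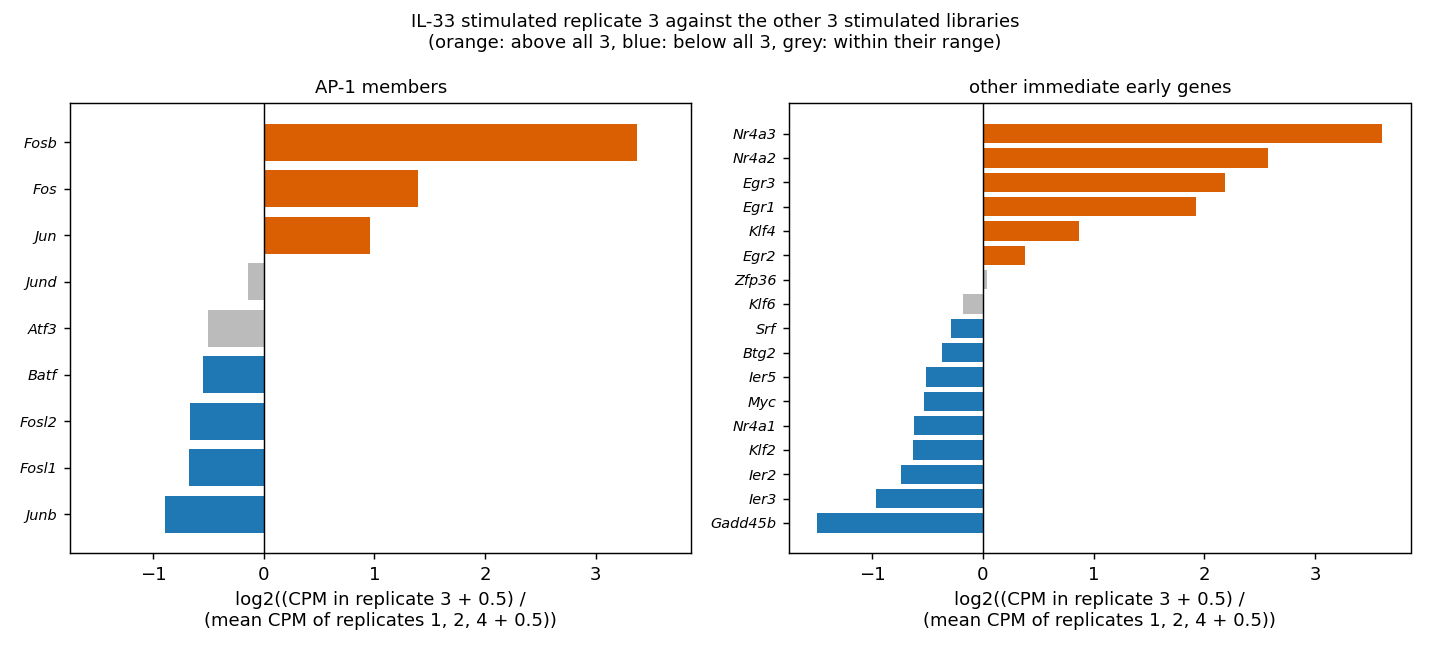
Log2 ratio (x axis, with 0.5 CPM added to both levels) of IL-33 stimulated replicate 3 over the mean of the other 3 stimulated libraries for 9 AP-1 members (left) and 17 other early response genes (right). Orange bars are above all 3 other libraries, blue bars below all 3 and grey bars within their range. Fosb and Nr4a3 are the most raised in their panels, and Junb and Gadd45b the most lowered.

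Per transcript length, as the deposited TPM, which sum to 1e+06 per library, Jund and Junb led the family in unstimulated ILC2s. Jund had 186 ± 35.7 TPM and Junb 185 ± 7.94 TPM (SD, n = 4), and their ranges overlapped. Batf followed with 89.3 ± 2.32 TPM, Fosl2 with 49.6 ± 2.07 and Fos with 26.6 ± 2.13. Jun (14.7 ± 2.11 TPM) and Fosl1 (11.8 ± 1.21 TPM) overlapped, and Atf3 had 3.61 ± 0.767 TPM. Batf3 and Fosb were under 1 TPM in every unstimulated library. The TPM of Fosl1 rests on a deposited length of 1707 bases, while the exons of GENCODE M21 span 2033, and for the other 9 members the lengths were equal.

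After IL-33, Junb stood alone at 569 ± 163 TPM (SD, n = 4). Batf (172 ± 36.4 TPM) and Jund (146 ± 25.8 TPM) came next with overlapping ranges. Fosl2 (77.5 ± 18.6 TPM) and Atf3 (49.2 ± 19.8 TPM) overlapped as well. By its mean, Atf3 moved from the eighth place of the family to the fifth. In replicate 3, however, Atf3 (35.1 TPM) stood below Jun (41.5 TPM), and the ranges of Atf3 and Jun overlapped. Jun (27.3 ± 9.67 TPM), Fosl1 (21.8 ± 6.38 TPM) and Fos (11.1 ± 6.24 TPM) overlapped in turn. Without replicate 3, Junb had 650 ± 25.8 TPM (SD, n = 3), Fosl2 (86.4 ± 6.28 TPM) and Atf3 (53.9 ± 21.4 TPM) no longer overlapped, Fosl1 (24.4 ± 4.57 TPM) stood before Jun (22.5 ± 2.35 TPM) with overlapping ranges, and Fos (7.95 ± 0.633 TPM) was below both. The summed TPM of the 10 members was 522 to 598 in unstimulated ILC2s and 743 to 1202 in stimulated ILC2s, with the lowest stimulated value in replicate 3.

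The make-up of this pool changed with it. Junb made up 30.9% to 36.3% of the family's TPM in unstimulated libraries and 44.0% to 56.2% in stimulated ones. Jund made up 25.7% to 35.7% and then 10.5% to 17.3%, and Fos 4.51% to 4.93% and then 0.606% to 2.74%, the highest value being that of replicate 3. None of these ranges overlapped. By type, the Jun proteins together held 64.3% to 69.6% of the pool in unstimulated and 65.7% to 72.9% in stimulated ILC2s, which overlapped. The 4 Fos proteins held 14.9% to 17.4% and then 9.47% to 12.2%, without overlap. Batf, Batf3 and Atf3 held 15.5% to 18.3% and then 17.1% to 23.5%, which overlapped. These shares add to 100% in each library, so they do not vary independently, and they were given no test.

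**Figure D4:**
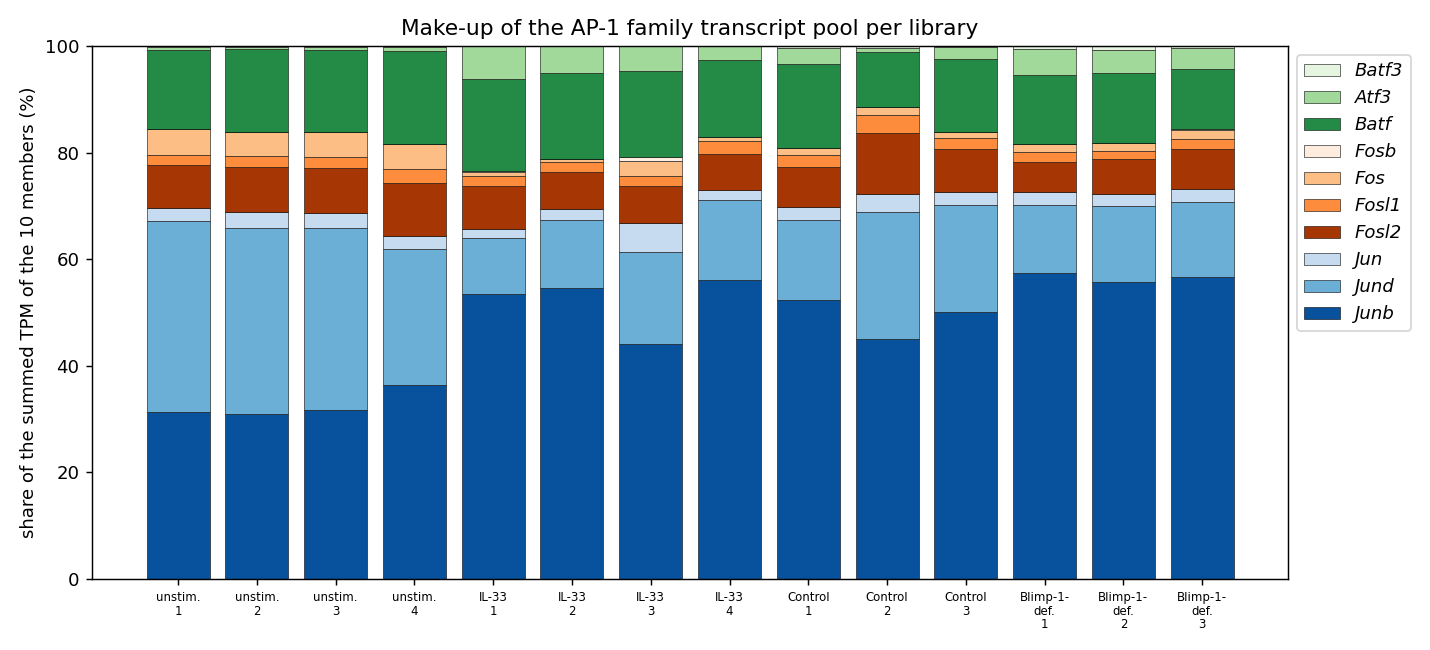
Share of each member in the summed TPM of the 10 AP-1 members (y axis, %) in each of the 14 libraries (x axis, group and replicate). Blue shades are Jun proteins, orange shades Fos proteins and green shades Batf, Atf3 and Batf3. Junb holds at most 36.3% in unstimulated libraries and at least 44.0% in all the others, and the share of Jund is above 25% only in unstimulated libraries.

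In the Blimp-1 experiment, both groups had been activated for 72 h, and the comparison asks how the members differ where Blimp-1 is missing. With all 6 libraries, 0 of 10 members were higher, against 0.45% of 17335 genes tested, and 0 were lower, against 0.306% (edgeR, adjusted p below 0.05). DESeq2 also called 0 in each direction. At an unadjusted p under 0.05, Atf3, Junb and Fos were higher and Jund lower, 4 of 10 members against 2071 of all genes. Without Control replicate 2, 2 members were higher, Atf3 and Junb, against 8.25% of 17968 genes, and 0 were lower, against 5.72%. Fos, Junb, Batf3 and Atf3 were higher in every Blimp-1-deficient library than in every Control, which held for 11.8% of all genes, and Fosl1 was lower in every one, against 10.8%. Without Control replicate 2 these shares of all genes were 24.3% and 26.1%, for the same 4 members and for Fosl1.

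Control replicates 1 to 3 had 16.6, 4.14 and 12.8 CPM of Atf3, and the 3 Blimp-1-deficient libraries had 29.0, 27.2 and 22.9 CPM. The groups did not overlap, and Control replicate 2, with 17 counts of Atf3, was the lowest library. The log2 fold change was 1.15 (SE 0.40, adjusted p = 0.328, edgeR) with all libraries and 0.85 (SE 0.15, 1.80-fold, adjusted p = 0.0120, n = 2 and 3) without Control replicate 2. The value was thus smaller and its error narrower when that library was left out.

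The Junb level was 316.2, 272 and 316.3 CPM in the Controls, against 368, 374 and 363 CPM without Blimp-1. The libraries other than Control replicate 2 were close together within each group. The difference was small, with a log2 fold change of 0.29 (SE 0.11, adjusted p = 0.353, edgeR) over 6 libraries and 0.23 (SE 0.06, 1.17-fold, adjusted p = 0.0445) without Control replicate 2, just past the threshold. For Fos, the Controls had 8.07, 8.77 and 7.09 CPM, and the deficient libraries had 8.99, 10.4 and 11.9 CPM. These ranges lay side by side without overlap, and the log2 fold change was 0.40 (SE 0.16, adjusted p = 0.410, edgeR), or 0.47 (SE 0.14, adjusted p = 0.0643) without Control replicate 2. Batf3 was low, at 1.94, 1.70 and 1.04 CPM in the Controls against 2.71, 3.24 and 2.02 CPM in the deficient libraries. Its log2 fold change of 0.78 (SE 0.34, adjusted p = 0.437, edgeR) did not pass, nor did that of 0.84 (SE 0.32, adjusted p = 0.126) without Control replicate 2. Fos, Junb, Batf3 and Atf3 had a positive log2 fold change under all 15 alternatives.

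The other 6 members did not pass the test with or without Control replicate 2. Batf went from 58.2, 37.8 and 53.2 CPM to 50.5, 53.8 and 44.4 CPM, with a log2 fold change of -0.02 (SE 0.17), or -0.16 (SE 0.09) without Control replicate 2. Jun had 19.4, 28.0 and 22.5 CPM and then 21.8, 21.5 and 21.1 CPM (-0.10, SE 0.15, or 0.05, SE 0.08, without that library). In Jun the Blimp-1-deficient libraries lay within the range of the Controls with or without Control replicate 2. In Batf they lay within it with that library, and without it all but 1 of them were below both Controls. Fosl1 was at 9.48, 15.1 and 9.75 CPM in the Controls and at 8.94, 7.56 and 8.42 CPM in the deficient cells, with a log2 fold change of -0.43 (SE 0.21, adjusted p = 0.508, edgeR), or -0.20 (SE 0.11, adjusted p = 0.250) without Control replicate 2. Fosl2 had 195, 294 and 211 CPM and then 154, 184 and 203 CPM, a log2 fold change of -0.37 (SE 0.19, adjusted p = 0.537, edgeR). Jund had 66.2, 104 and 91.8 CPM and then 58.8, 68.9 and 65.9 CPM, a log2 fold change of -0.43 (SE 0.17, adjusted p = 0.407, edgeR). In Fosl1, Fosl2 and Jund the highest library was Control replicate 2, and the difference shrank to -0.16 in Fosl2 and -0.28 in Jund without it. Fosb stayed between 0.665 and 1.95 CPM in the 6 libraries, with 8 counts in Control replicate 2. The sign of Fosb, Fosl1, Fosl2, Jun, Jund and Batf was positive with a scaling by library size only, and that of all these but Fosb, which was too low to be tested there, when TPM were compared. These scalings moved the median of all genes from -0.02 to 0.45 and, for TPM with a pseudocount of 1, to 1.28, and no member passed the threshold under either.

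Control replicate 2 was above both other Controls for 6 of 10 members and below for 3 (Junb, Batf and Atf3), and over all genes it was above for 41.5% and below for 50.2%. Its Col1a1 reached 2171 CPM, against 48.1 and 124 CPM in the other Controls, and its summed epithelial and stromal markers 3562 CPM, against 199.8 and 304 CPM in the other Controls and 453 to 645 CPM in Blimp-1-deficient ILC2s. Most of this sum came from Col1a1 and from Col1a2, at 1337 CPM, and of the 6 markers of this list tested, 3 were above and Pecam1, Cdh5 and Epcam below the other Controls. Sums of other markers differed between the groups. The 8 T cell markers summed to 29.0 to 30.1 CPM in the Controls and to 41.2 to 45.3 CPM in the deficient libraries, and the 12 ILC2 markers to 6376 to 7849 CPM and to 5596 to 5990 CPM, in both cases without overlap. The T cell sum was carried by Cd28, with 6.83 to 7.06 CPM and then 12.2 to 21.05 CPM, and Cd3g, with 8.28 to 13.9 CPM and then 14.8 to 19.7 CPM, while the median log2 fold change of the list was -0.20, or -0.07 without Control replicate 2. With all 6 libraries 0 of these T cell and ILC2 markers passed the threshold. At an unadjusted p under 0.05 were 2 of the 8 and 7 of the 12, against 2071 of all 17335 genes tested. For the counts of markers that follow, the shares of all genes were 0.45% higher and 0.306% lower with all 6 libraries. Without Control replicate 2 they were 8.25% and 5.72%. Without Control replicate 2 Cd28 was higher (Cd28 and Cd3g were named after their values were seen), while 4 ILC2 markers were higher and 6 lower (edgeR). Of 5 NK and ILC1 markers tested, 1 was lower with all 6 libraries and also without Control replicate 2. Without that library, 2 of 7 myeloid markers and 1 of 6 epithelial and stromal markers tested were higher and 0 lower. With all 6 libraries 0 of these myeloid, epithelial and stromal markers passed, and of 2 B cell markers tested 0 passed in either fit. The part of other cells in the differences of Atf3 and Junb, and in the AP-1 values of Control replicate 2, was not tested.

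In TPM, Junb led in every library of this experiment, with 515 and 537 TPM in Control replicates 1 and 3 and 644 ± 35.9 TPM in Blimp-1-deficient ILC2s (SD, n = 3). In the deficient cells Jund (155 ± 4.99 TPM) and Batf (142 ± 16.4 TPM) overlapped, and they were followed by Fosl2 (74.7 ± 6.89 TPM), Atf3 (49.4 ± 8.13 TPM), Jun (27.1 ± 1.93 TPM), Fosl1 (19.6 ± 2.63 TPM) and Fos (17.8 ± 1.78 TPM), the last 2 overlapping. Batf3 had 6.69 ± 1.55 TPM and Fosb 0.684 ± 0.145 TPM. By their means, the members stood in the order of IL-33 stimulated ILC2s except that Jund came before Batf and Batf3 before Fosb. Against the order without IL-33 stimulated replicate 3, the exceptions were Jund before Batf and Jun before Fosl1. The TPM of Control replicate 2 are lowered in part by the ribosomal loci, to 12.8 TPM for Junb. Scaled without them, Junb had 209 TPM in that library, still below the 528 and 544 TPM of Control replicates 1 and 3 scaled alike. In CPM it had 272 against 316.2 and 316.3. The cause of the remaining gap in TPM was not tested. As a share of the family, which those loci do not touch, Junb held 45.1% to 52.3% in the Controls and 55.7% to 57.4% in Blimp-1-deficient ILC2s, and Atf3 0.732% to 2.93% and 3.82% to 4.85%. Neither pair of ranges overlapped, and these shares were given no test.

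The genes around the family were read from lists written by known function, with earlier results of these data known. Of 24 other bZIP factors, 23 were tested after IL-33, and 3 were higher and 5 lower, with a median log2 fold change of -0.08, against 16.2% higher and 16.1% lower of all genes tested. Without IL-33 stimulated replicate 3, 6 were higher and 9 lower, against 27.5% and 29.7% of all genes. Crem, the cAMP-responsive modulator, rose from 51.3 to 65.7 CPM in unstimulated libraries to 303 to 358 CPM in stimulated ones (log2 fold change 2.50, SE 0.10, adjusted p = 4.47e-06, edgeR), and Nfe2l1 rose by 0.86. Bach1 and Bach2, repressors that bind sites like those of AP-1, fell by 1.64 and by 1.36 on the log2 scale. Of 8 factors that bind beside AP-1, 1 was higher and 4 lower, or 2 and 4 without that library. Irf4, the partner of BATF, rose from 30.7 to 53.9 CPM to 135 to 274 CPM (log2 fold change 2.42, SE 0.27, adjusted p = 0.000401, edgeR), while Nfatc2 fell by 1.27, Nfatc1 by 0.89 and Runx1 by 0.77.

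Of 22 genes of the receptor and the MAP kinases, 4 were higher and 7 lower after IL-33, and 7 and 10 without IL-33 stimulated replicate 3. For this list and the next ones, the shares of all genes tested were 16.2% higher and 16.1% lower, or 27.5% and 29.7% without that library. Map3k8, which encodes the kinase TPL2 upstream of ERK, rose by 1.64 (SE 0.18, adjusted p = 0.000329, edgeR) and Irak3, a brake on MyD88 signalling, by 1.17. Irak4 fell by 1.20 and Mapk3, which encodes ERK1, by 1.13. Of 14 MAP kinase phosphatases and feedback genes, 3 were higher and 2 lower, or 4 and 3 without that library, among them Dusp16 (1.08) and Spry2 (0.67) with a rise, and Spry1 (-1.56) and Spred2 (-0.36) with a fall. Of 17 other early response genes, 8 were higher and 3 lower, or 9 and 4 without it, while the median of the list went from 1.08 to 0.53. Nr4a1 rose by 3.87 (SE 0.20, adjusted p = 1.24e-05, edgeR), Gadd45b by 2.66, Egr1 by 2.07 and Egr3 by 1.99, and without IL-33 stimulated replicate 3 Egr1 and Egr3 rose by 1.30 and 1.05.

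Of 15 genes in which AP-1 sites are known, 10 were higher and 2 lower after IL-33, against 16.2% and 16.1% of all genes tested. Without IL-33 stimulated replicate 3, 11 were higher and 3 lower, against 27.5% and 29.7%. The median of this list was 1.68 with that library and 1.70 without it. The list includes the cytokine genes Il13 (log2 fold change 6.68, SE 0.45), Csf2 (5.88, SE 0.18), Il5 (4.98, SE 0.25) and Tnf (2.89, SE 0.13). Because it was written with earlier results of these data known, its counts in both experiments are a description. They are no independent test of AP-1 activity, which was not measured. In the Blimp-1 experiment with all 6 libraries, 2 genes of these 6 lists passed the threshold. The Controls had 19.2, 15.1 and 19.6 CPM of Tnf, against 82.1, 84.3 and 80.6 CPM in the deficient cells (log2 fold change 2.17, SE 0.12, adjusted p = 0.00441, edgeR). Egr3 had 24.0, 26.8 and 19.7 CPM and then 7.68, 9.66 and 6.996 CPM (-1.52, SE 0.18, adjusted p = 0.0294, edgeR). Neither gene overlapped between the groups. Without Control replicate 2, 8 of the 15 genes with AP-1 sites were higher and 1 lower, with a median of 0.81 against 0.01 over all genes, of which 8.25% were higher and 5.72% lower. In the same comparison 3 of the 17 early response genes were higher and 3 lower, 5 of the 24 other bZIP factors were higher and 1 lower, 1 of the 22 receptor and MAP kinase genes higher and 3 lower, 1 of the 8 factors that bind beside AP-1 higher and 1 lower, and 1 of the 14 phosphatases and feedback genes higher and 2 lower.

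Markers of cells that the sort should leave out moved with IL-33 as well. Of 5 epithelial and stromal markers tested, Epcam fell by 4.50 and Col1a2 by 1.55, Cdh5 was lower, and Pecam1 rose by 0.99, and the summed 8 markers went from 426 to 669 CPM in unstimulated to 243 to 419 CPM in stimulated ILC2s. Of 8 T cell markers, 3 were lower and 0 higher, and of the 6 myeloid markers tested 0 passed. Over all genes tested, 16.2% were higher and 16.1% lower. Mast cell and basophil markers summed to 7.12 to 14.7 CPM and then at most 0.985 CPM. Most of the unstimulated sum came from Cpa3 alone, at 6.68 to 12.8 CPM, and 3 of the 7 markers were 0 in every unstimulated library. The sum thus follows Cpa3 rather than the list as a whole. NK and ILC1 markers summed to at most 4.18 CPM. Of the 12 ILC2 markers, 1 was higher and 9 lower, among them Thy1, which encodes the CD90 used in the sort, by 2.52 on the log2 scale. The part of other cells in the AP-1 differences was not tested, and AP-1 genes are expressed by many of these cell types.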

How the data were processed

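RNA-seq libraries were made from sorted lung ILC2s with the SMART-seq v4 kit and sequenced as paired reads. According to the Methods, adaptors were removed by the authors with cutadapt, HISAT2 placed the reads on GRCm38 and Subread produced the raw gene counts, which were deposited without normalization. The submitters' processing notes also name Bowtie2 and DESeq2, with no role. The deposited TPM were computed by the authors from these counts, and each library sums to 1e+06. Every per-library column was used, and 28268 and 30196 genes had a count in the stimulation and the Blimp-1 experiment.

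From the counts, edgeR 4.0.16 (R 4.3.3) compared IL-33 stimulated with unstimulated and Blimp-1-deficient with Control libraries by its two-sided quasi-likelihood test, with TMM scaling, default filterByExpr and no covariate. P-values were adjusted over all 15466 and 17335 genes tested by Benjamini-Hochberg, with a threshold of 0.05. Standard errors were derived from the fold change and its F statistic. CPM carry no prior count. TPM served for levels between genes, and levels of the 2 experiments, normalized apart, were not compared by a test. The comparison was also run on simulated data, whose outcome is not reported here. Coordinates came from GENCODE M21, whose exon lengths equalled the deposited ones for 95.3% of the genes matched by name, and promoter windows from RefSeq. No stretch of read length was shared between a member and another transcript.

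The members and all 14 lists were chosen with earlier results of these data known. Every member is named. Of each other list, up to 4 genes are named, those past the threshold over all libraries with the largest log2 fold change and a mean of at least 5 CPM, besides Prdm1 and genes that describe IL-33 stimulated replicate 3, Control replicate 2 or the sort, which were chosen after their values were seen. The 5 genes nearest to the member with the smallest adjusted p after IL-33 are also named. The alternatives were DESeq2 1.42.0, RLE factors, library size only, no filter, a mean count of at least 50, limma 3.58.1 on log2 TPM with a pseudocount of 1 or of 0.1 (genes with a mean of at least 1 TPM), the replicate number as a block, each library left out, and, added after seeing the data, voom with sample weights. ATAC-seq and protein sequences were not used here, and 1 of the marker lists is not reported here.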

Additional observations from a re-analysis of the deposited data

Results flagged for a closer look

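Among the 20 groups of 4 libraries tested (10 members in unstimulated and IL-33 stimulated ILC2s), 3 held a library whose gap to the others exceeded the 95% limit of Dixon's test, which chance passes in about 1 of 20 groups. All 3 were IL-33 stimulated replicate 3. It was high for Fos, with 18.3 CPM against 5.99 to 7.22 CPM in the other stimulated libraries, and high for Fosb, with 13.2 CPM against 0.810 to 0.849 CPM. It was low for Batf, with 64.7 CPM against 92.2 to 97.8 CPM, where the gap was 0.830 of the group's range and only just past the limit.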

How the results depend on the processing

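The 6 members higher after IL-33 were called under all 17 alternatives tried for that comparison. The number of members lower after IL-33, 0 with all libraries, was 1 with DESeq2, limma on log2(TPM + 1), limma on log2(TPM + 0.1) and voom with sample weights, and ran from 0 to 1 as each library was left out, with 1 without IL-33 stimulated replicate 3. That member was Fos in each case. The number higher in Blimp-1-deficient ILC2s, 0 with all libraries, was 2 with voom (Atf3 and Fos) and ran from 0 to 2 as each library was left out, with 2 without Control replicate 2 (Atf3 and Junb). The numbers of all genes moved as well, to 4328 higher and 4666 lower after IL-33 without IL-33 stimulated replicate 3, from 2508 and 2484. They moved to 1483 and 1027 without Control replicate 2 and to 557 and 551 with DESeq2, from 78 and 53. The cause of these changes was not tested.

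Signs turned only for members that did not pass the threshold. Jund after IL-33 ran from -0.17 to 0.13 on the log2 scale as each library was left out. In the Blimp-1 comparison, scaling by library size only gave 0.54 for Fosb, 0.19 for Fosl1, 0.25 for Fosl2, 0.47 for Jun, 0.14 for Jund and 0.37 for Batf. Limma gave 1.04 for Fosl1, 1.31 for Fosl2, 1.35 for Jun, 1.31 for Jund and 1.66 for Batf on log2(TPM + 1), and 1.31, 1.42, 1.64, 1.36 and 1.78 on log2(TPM + 0.1). Batf was at 0.011 with no filter on low counts, and Fosb at 0.42 with voom. Leaving out each library gave -0.43 to 0.28 for Fosb, -0.20 to 0.045 for Jun and -0.16 to 0.12 for Batf. Library size only and limma on log2(TPM + 1) moved the median of all genes after IL-33 from 0.06 to -0.10 and -0.25, and the share of higher calls from 50.2% to 32.8% and 18.1%.

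Same-numbered libraries correlated at -0.12, 0.21, 0.31 and 0.17 in the stimulation experiment and at -0.13, -0.16 and 0.14 in the Blimp-1 experiment. Libraries with unlike numbers correlated at -0.32 to 0.27 and at -0.22 to 0.19. The highest value of the stimulation experiment, 0.31, was that of a same-numbered pair. These values do not settle whether equal numbers mark a pairing, which was not tested. For the stimulation experiment the design text describes separate mice. With the replicate number as a block, 1802 genes were higher and 1898 lower after IL-33, 0 and 0 passed in the Blimp-1 comparison, and Batf there was at 0.00061.

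Depth limits Batf3 and Fosb, which reached at most 14 and 134 counts in any library of the stimulation experiment, and Control replicate 2, where Atf3 had 17 and Batf3 7 counts.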

Other observations

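The genes whose levels ran most like those of Atf3 over the 8 libraries of the stimulation experiment were Lif, Ak4, Areg, Cxcl3 and Tigit, among 10809 genes compared. Lif and Areg encode secreted factors of the IL-6 and EGF families, Cxcl3 a chemokine, Ak4 a mitochondrial adenylate kinase and Tigit an inhibitory receptor of lymphocytes. The measure was the root mean square difference of the centred log2 CPM (with a prior count of 2), which was 0.32 for Lif, 0.37 for Ak4, 0.38 for Areg, 0.42 for Cxcl3 and 0.43 for Tigit. Their log2 fold changes after IL-33 were 3.96, 3.94, 3.36, 4.01 and 4.58, beside 4.08 for Atf3. The likeness is a description over 8 libraries that mostly follows the step between the groups.

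Dusp8, which encodes a phosphatase of JNK and p38, was chosen after its values were seen. It had 87.8 CPM in IL-33 stimulated replicate 3 and 1.74 to 2.20 CPM in the other stimulated libraries. Zfp36, which encodes an RNA-binding protein that destabilizes AU-rich transcripts such as that of Tnf, was also chosen after its values were seen. With all 6 libraries of the Blimp-1 experiment it did not pass the threshold. Without Control replicate 2 (n = 2 and 3), 5.72% of all genes were lower in Blimp-1-deficient ILC2s. Zfp36 was among them, with a log2 fold change of -1.11 (SE 0.10, adjusted p = 0.00159, edgeR). Its level was 43.5, 82.6 and 46.5 CPM in the Controls, highest in replicate 2, against 18.8, 23.6 and 19.7 CPM in the deficient libraries.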
